A study of Mus musculus with 12 samples.

Results

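Slc6a6, which encodes the taurine transporter, and 9 further transporters of amino acids (Slc7a11, Slc3a2, Slc7a5, Slc7a7, Slc7a8, Slc1a5, Slc38a1, Slc38a2 and Slc1a3) were followed by gene symbol through 12 libraries of sorted synovial macrophages. They are 10 of the 26699 gene symbols counted. The set was chosen by the readout itself: Slc6a6 was selected on its lower level with CGRP in CD11c libraries and not in IAIE libraries, so its levels and changes are given as a description, without a test.

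Synovium was dissected whole from adult wild-type C57BL/6 mice and kept ex vivo for 4 h with 100 nM calcitonin gene-related peptide (CGRP, a neuropeptide released by sensory nerve endings) or with vehicle. The tissue was then digested with collagenase, and macrophages positive for MHC class II were sorted by CD11c. The CD11c-negative subset is called IAIE, after the MHC class II molecules I-A and I-E, and the CD11c-positive subset is called CD11c. RNA of each sort was sequenced in bulk. The 4 groups were IAIE control, IAIE CGRP, CD11c control and CD11c CGRP, with 3 libraries each. The tissue was whole when it met CGRP, so that other synovial cells met it too, and the sources used here do not say whether animals were pooled for a library or whether replicates came from separate animals. If they did not, p-values measure only the spread between these libraries. In bulk RNA, fewer cells of a type and less RNA per cell cannot be told apart.

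Amino acids cross the plasma membrane through carriers of several families. SLC7 light chains reach the membrane bound to the heavy chain encoded by Slc3a2 (CD98), and each light chain sets what the pair carries: SLC7A11 (xCT) takes up cystine in exchange for glutamate and feeds glutathione synthesis, SLC7A5 (LAT1) and SLC7A8 (LAT2) exchange large neutral amino acids, and SLC7A7 (y+LAT1) exports cationic amino acids. SLC1A5 (ASCT2), SLC38A1 (SNAT1) and SLC38A2 (SNAT2) carry glutamine and other small neutral amino acids with sodium, SLC1A3 (EAAT1) carries glutamate, and SLC6A6 brings taurine, an osmolyte that innate immune cells hold at high concentration, into the cell with sodium and chloride.

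The libraries held 2127191 to 5649698 counts each. A floor of detection was set at 3 counts, equal to 0.534 to 1.34 CPM, the counts scaled to library size. All 10 of 10 macrophage markers were above the floor in every group, with a summed level of 7082 to 8831 CPM in IAIE and 4509 to 5657 CPM in CD11c libraries. Itgax, which encodes CD11c, stood at 1.24 to 10.7 CPM in IAIE libraries, at 219 to 270.1 CPM in CD11c control libraries and at 107 to 121 CPM in CD11c CGRP libraries. Fibroblast markers (8 of 8 with a row) summed to 169 to 1383 CPM in the control and 52.2 to 1571 CPM in the CGRP libraries of the IAIE subset, and to 24.5 to 35.6 and 74.9 to 388 CPM in those of the CD11c subset. Chondrocyte markers (4 of 4) summed to 8.54 to 409.9 CPM in CD11c CGRP libraries and to 1.40 to 6.53 CPM in CD11c control libraries, and mural markers (5 of 5) to 51.5 to 345 against 25.5 to 31.3 CPM. Dendritic cell markers (5 of 5) summed to 313 to 375 CPM in CD11c control and 581 to 703 CPM in CD11c CGRP libraries. The higher sum was not shared by all of them, as the median log2 change of the 4 tested was -0.67 there. B cell markers (4 of 4) summed to 43.7 to 91.5 CPM in IAIE control and 17.7 to 31.5 CPM in IAIE CGRP libraries, while the 1 T cell marker of 4 with a row was at or under the floor in every group. The part of these cells in the transporter levels was not tested.

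Slc6a6 had its highest level in CD11c control and its lowest in CD11c CGRP libraries. In IAIE control libraries it was measured at 529, 589 and 577 CPM, and in IAIE CGRP libraries at 649, 580.0 and 524 CPM. In CD11c control libraries it stood at 689, 692 and 636 CPM. The 3 CD11c CGRP libraries lay at 350, 338 and 274 CPM, below each of the other 9 libraries, and they are the libraries on which the gene was chosen. By group mean the order was CD11c control (673 ± 31.4 CPM, SD, n = 3), IAIE CGRP (584 ± 62.7), IAIE control (565 ± 31.9) and CD11c CGRP (321 ± 41.0). CD11c control and IAIE CGRP overlapped by library, as did both IAIE groups, whereas IAIE control and CD11c CGRP did not.

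The log2 change of Slc6a6 with CGRP was 0.05 ± 0.12 (estimate ± SE) in the IAIE subset and -1.07 ± 0.13 in the CD11c subset, and the second minus the first was -1.12 ± 0.18. Under 14 alternative fits and omissions of 1 library for each subset, these estimates stayed between -0.02 and 0.13 in IAIE and between -1.17 and -0.99 in CD11c cells. CD11c cells held more Slc6a6 RNA than IAIE cells among control libraries by 0.25 ± 0.12 on the log2 scale and differed from them by -0.87 ± 0.12 among CGRP libraries. Slc6a6 had 1.38% of its exon length overlapped by an antisense gene.

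**Figure D1:**
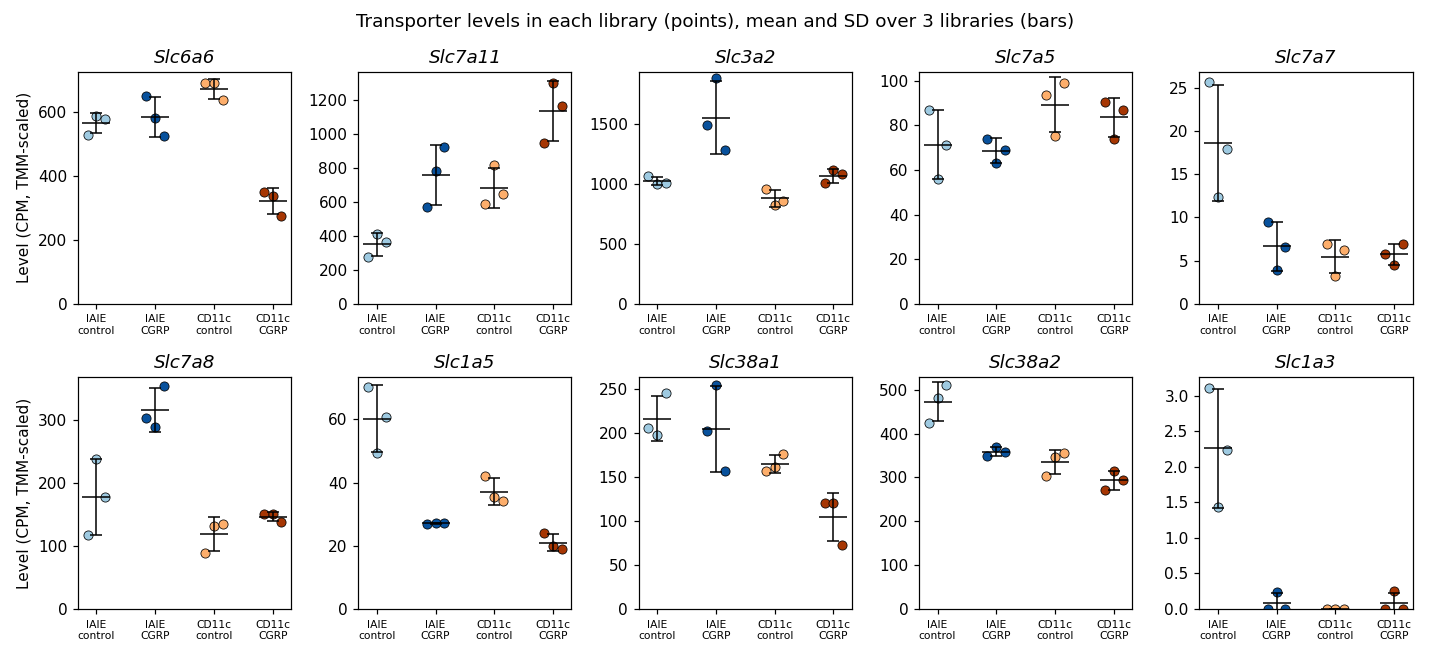
Level of each transporter in CPM (vertical axes, linear and from 0) in the 4 groups, with a point per library and bars for mean and SD over 3 libraries. Slc6a6 lay at 274 to 350 CPM in CD11c CGRP libraries and at 524 to 692 CPM elsewhere, while Slc7a11 rose with CGRP in both subsets.

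Per kilobase of exon, the scale on which genes can be compared, Slc3a2 led in all groups, at 290.4 ± 9.97 CPM per kb in IAIE control libraries. There Slc6a6 came second (66.8 ± 3.77), ahead of Slc38a2 (53.4 ± 4.98), Slc7a8 (35.4 ± 12), Slc7a11 (25.2 ± 4.99), Slc7a5 (19.2 ± 4.17), Slc1a5 (14.4 ± 2.53), Slc38a1 (12.6 ± 1.49), Slc7a7 (5.63 ± 2.03) and Slc1a3 (0.264 ± 0.0978). From Slc7a8 to Slc38a1 each neighbour overlapped the next by library. In CD11c CGRP libraries Slc7a11 took the second place (81.7 ± 12.7 CPM per kb), and Slc6a6 (37.9 ± 4.85) overlapped with Slc38a2 (33.2 ± 2.47). Exon lengths were the union of all annotated exons, which lowers the level of genes with many long isoforms.

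The genes whose log2 levels followed Slc6a6 most closely over the 12 libraries, among 5319 genes averaging 20 CPM or more, were Fkbp4 (Pearson r = 0.950), Rnh1 (0.930), Fuca2 (0.924), Camk1d (0.908) and Psap (0.906). Fkbp4 encodes an HSP90 co-chaperone, Rnh1 the ribonuclease inhibitor, Fuca2 an alpha-L-fucosidase, Camk1d a calcium/calmodulin-dependent kinase and Psap the lysosomal precursor prosaposin. Each had its lowest group mean in CD11c CGRP libraries. Camk1d, for example, averaged 114 ± 12.6 CPM without and 86.1 ± 2.16 CPM with CGRP in IAIE cells, and 114 ± 8.53 CPM without and 47.4 ± 4.64 CPM with CGRP in CD11c cells. These points share libraries, and Slc6a6 itself was chosen for its pattern. Of the other transporters, Slc38a1 came nearest (r = 0.791), and Slc7a11 ran the other way (r = -0.572).

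**Figure D2:**
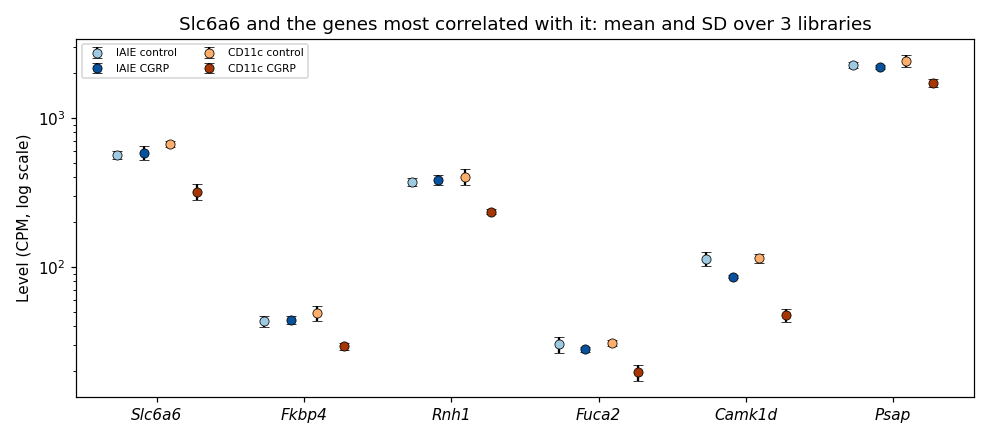
Mean level (CPM, log axis) with SD over 3 libraries for Slc6a6 and the 5 genes most correlated with it, by group. In all 6 genes the CD11c CGRP mean is the lowest of the 4, from 19.6 CPM for Fuca2 to 1725 CPM for Psap.

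In the IAIE subset, CGRP raised the cystine carrier Slc7a11, its heavy chain Slc3a2 and the neutral exchanger Slc7a8, and lowered the glutamine carriers Slc1a5 and Slc38a2 and the cationic exporter Slc7a7. That made 3 of the 8 other tested transporters higher and 3 lower at an adjusted p under 0.05 (edgeR quasi-likelihood test, two-sided, Benjamini-Hochberg over all 11927 genes tested), beside 9.21% of all genes called and, of all genes, 24.9% whose 2 groups did not overlap. Their median log2 change was -0.07, against -0.02 for all genes. The ninth, Slc1a3, did not pass the filter on low counts. As the list was picked with the CGRP effect in view, nothing is read from its share of calls. In the same comparison 3 of 6 tested fibroblast and 1 of 4 tested dendritic cell markers fell, and 1 of 10 macrophage markers rose. The summed B cell markers were lower in every CGRP library than in any control library. The part of all these cells in the transporter changes was not tested.

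Slc7a11 was measured at 275, 410.5 and 367 CPM in IAIE control libraries and at 572, 785 and 922 CPM in IAIE CGRP libraries. Each CGRP library exceeded every control library, by a log2 change of 1.12 ± 0.18 (2.17-fold, adjusted p = 5.1e-04). Slc3a2 stood at 1065, 1000.5 and 1009 CPM in control and at 1491, 1880 and 1280 CPM in CGRP libraries, without overlap, a change of 0.60 ± 0.13 on the log2 scale (1.51-fold, adjusted p = 0.0050). Calls for both genes stayed past the threshold under all 14 alternatives. Slc7a8 had 117, 237 and 178 CPM in control and 303, 288 and 354 CPM in CGRP libraries, again without overlap, a log2 change of 0.83 ± 0.20 (1.78-fold, adjusted p = 0.011). This call was lost without IAIE control replicate 1 (adjusted p = 0.0532) and without IAIE CGRP replicate 3 (0.0518).

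Slc1a5 fell from 70.4, 49.3 and 60.9 CPM in IAIE control libraries to 27.0, 27.2 and 27.2 CPM in IAIE CGRP libraries. The log2 change was -1.15 ± 0.19 (adjusted p = 6.7e-04), and the groups did not overlap. Slc38a2 lay at 424, 482 and 511 CPM in control and at 349, 369 and 358 CPM in CGRP libraries, again without overlap, a change of -0.40 ± 0.12 (adjusted p = 0.0404). The Slc38a2 call was lost without IAIE control replicate 2 (adjusted p = 0.135), control replicate 3 (0.174) and CGRP replicates 1 (0.139), 2 (0.101) and 3 (0.109), with every gene of at least 1 count in the fit (0.265) and in a fit of the compared groups alone (0.0783). Slc7a7, a low gene with 16 to 83 counts a library in this subset, read 25.7, 12.3 and 17.9 CPM in control and 9.53, 3.89 and 6.60 CPM in CGRP libraries, a log2 change of -1.48 ± 0.42 (adjusted p = 0.0301). Its call was lost without IAIE control replicate 1 (0.163) or 3 (0.0624) and without IAIE CGRP replicate 2 (0.140) or 3 (0.0917), and 7% of its exon length is overlapped by the antisense gene Oxa1l, whose reads cannot be told apart without a stranded count.

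Slc7a5 and Slc38a1 did not pass in the IAIE subset. Slc7a5 lay at 86.9, 55.9 and 71.2 CPM in control and 74.1, 63.2 and 68.8 CPM in CGRP libraries (log2 change -0.05 ± 0.17, adjusted p = 0.906), so that the CGRP values fell inside the control range. Slc38a1 lay at 206, 198 and 246 CPM against 203, 255 and 157 CPM (-0.08 ± 0.19, adjusted p = 0.862). The glutamate carrier Slc1a3 had 10, 5 and 5 counts in IAIE control libraries and 0, 1 and 0 in the CGRP libraries of that subset. In CD11c cells it had 0 counts in each control library and 0, 1 and 0 with CGRP. Only the IAIE control libraries were above the floor of 3 counts, and no fold change is given.

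The stretches just upstream of the start sites are shown for the transporters that rose in IAIE cells (Slc7a11, Slc3a2 and Slc7a8) and for Slc38a2, which fell there. RefSeq's promoter table (build GRCm38.p6) matched 6 of the 10 genes. Slc6a6, Slc7a5, Slc1a5 and Slc38a1 are named only. Each run below is the 250 bases before the start site, 5′ to 3′ on the gene's own strand, which is the minus strand in all of them: chr3:50443614-50443863 for Slc7a11, chr19:8713898-8714147 for Slc3a2, chr14:54781887-54782136 for Slc7a8 and chr15:96699729-96699978 for Slc38a2. Capitals mark a match on either strand to the cyclic AMP response element (CRE) core TGACG, the full CRE TGACGTCA, the ATF4 element TGATGNAAN or the NRF2 element TGACNNNGC, where N is any base. A full CRE contains the core, and the NRF2 element can overlap it.
Slc7a11: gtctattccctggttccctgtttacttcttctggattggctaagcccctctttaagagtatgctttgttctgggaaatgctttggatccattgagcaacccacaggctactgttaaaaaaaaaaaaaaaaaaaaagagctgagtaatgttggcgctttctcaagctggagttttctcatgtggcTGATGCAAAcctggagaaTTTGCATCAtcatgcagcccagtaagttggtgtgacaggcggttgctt
Slc3a2: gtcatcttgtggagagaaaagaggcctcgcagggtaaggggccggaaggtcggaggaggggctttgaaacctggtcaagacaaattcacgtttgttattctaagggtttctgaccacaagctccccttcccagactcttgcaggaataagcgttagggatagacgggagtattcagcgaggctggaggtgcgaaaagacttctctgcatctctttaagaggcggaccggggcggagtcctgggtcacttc
Slc7a8: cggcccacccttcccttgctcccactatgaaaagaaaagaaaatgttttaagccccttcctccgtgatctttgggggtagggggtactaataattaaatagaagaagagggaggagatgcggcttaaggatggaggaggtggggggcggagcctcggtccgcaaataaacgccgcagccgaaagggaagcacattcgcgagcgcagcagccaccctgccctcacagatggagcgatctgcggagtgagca
Slc38a2: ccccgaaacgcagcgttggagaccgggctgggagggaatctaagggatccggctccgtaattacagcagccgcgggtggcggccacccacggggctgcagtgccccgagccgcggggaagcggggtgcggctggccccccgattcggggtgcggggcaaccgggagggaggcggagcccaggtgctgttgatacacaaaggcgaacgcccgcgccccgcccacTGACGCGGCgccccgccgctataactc
In Slc7a11 the ATF4 element was matched in both orientations, 66 to 58 and 48 to 40 bases before the start. Among 32851 mouse promoter windows of the same length, 3.44% hold that element. Slc38a2 held the NRF2 element (10.2% of windows) 27 to 19 bases before its start, and the CRE core (17.8%) lay within it. Slc3a2 and Slc7a8 had no match to these letters in this window. The ATF4 element was also matched in 2 of the 5 windows of Slc7a7, which fell in IAIE cells, 141 to 133 and 243 to 235 bases before 2 of its start sites. No window of the 4 printed held the full CRE, which is found in 1.55% of windows. These matches describe the sequence and say nothing of binding.

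In the CD11c subset, CGRP raised Slc7a11 and lowered Slc1a5 and Slc38a1. That was 1 higher and 2 lower of the 8 other tested transporters, beside 10.9% of all genes called and 29.2% of genes without overlap, with a median log2 change of -4e-04 against 0.0016 for all genes. As for IAIE, nothing is read from this share. In these libraries 4 of 4 tested mural, 2 of 6 fibroblast, 1 of 1 chondrocyte and 1 of 10 macrophage markers rose with CGRP, and 1 of 4 B cell markers fell. Of 4 tested dendritic cell markers 1 rose and 1 fell, and the part of all these cells was not tested either. The 2 CGRP comparisons use different libraries, and both share their libraries with the comparisons of the subsets.

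Slc7a11 stood at 588, 817 and 648 CPM in CD11c control libraries and at 949, 1300 and 1165 CPM in CD11c CGRP libraries. The groups did not overlap and the log2 change was 0.73 ± 0.18 (1.66-fold, adjusted p = 0.011). It lost the threshold without CD11c control replicate 1 (0.0657), control replicate 3 (0.0602) or CGRP replicate 2 (0.0565). Slc1a5 fell from 42.0, 35.3 and 34.1 CPM to 24.2, 19.8 and 19.0 CPM, a log2 change of -0.81 ± 0.20 (adjusted p = 0.0095) that passed under all 14 alternatives. Slc38a1 fell from 157, 161 and 177 CPM to 121, 120.3 and 72.8 CPM, by a log2 change of -0.66 ± 0.19 (adjusted p = 0.0292), with no overlap. That call was lost without CD11c control replicate 1 (0.0515), control replicate 3 (0.0873) or CGRP replicate 3 (0.127). Of Slc38a1 exon words of 31 bases, 6.59% are shared with other genes, 4632432E15Rik sharing the most, so its counts may hold reads of other genes. This share was 4.15% for Slc3a2 and 2.84% for Slc7a11.

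The heavy chain Slc3a2 did not pass in CD11c cells: 959.9, 824 and 859 CPM in control and 1003, 1113 and 1082 CPM in CGRP libraries gave a log2 change of 0.28 ± 0.13 (adjusted p = 0.213), although the groups did not overlap. Slc7a8 gave 0.30 ± 0.20 (adjusted p = 0.438), from 88.1, 132 and 135 CPM to 151, 150.5 and 138 CPM. For Slc7a5 (-0.09 ± 0.17), Slc7a7 (0.09 ± 0.44) and Slc38a2 (-0.19 ± 0.12) the groups overlapped and adjusted p ranged from 0.385 to 0.942. A p that misses the threshold does not show that these levels were equal.

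**Figure D3:**
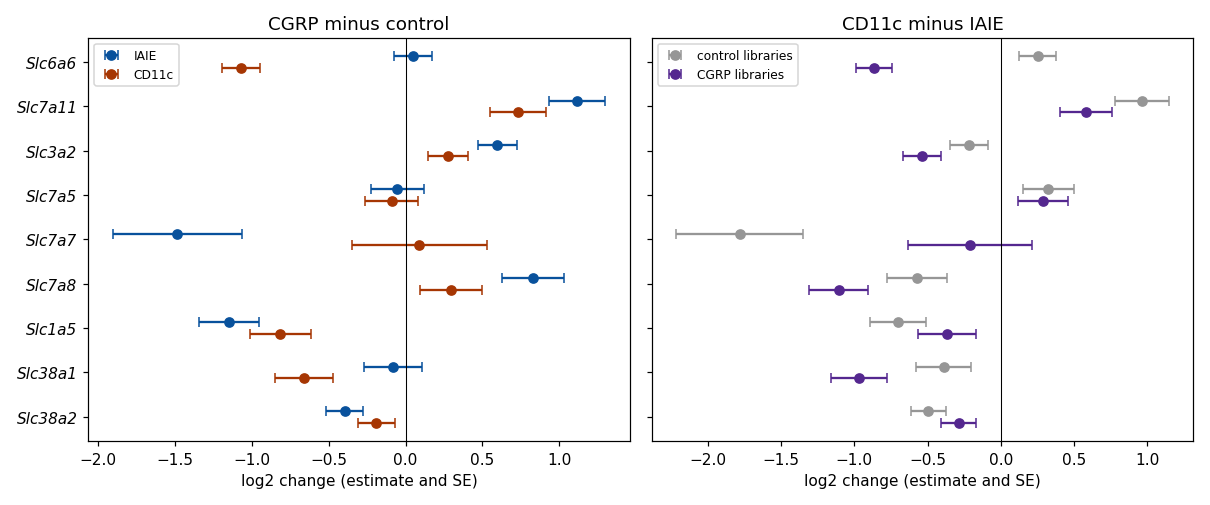
Log2 change (horizontal axes, estimate with SE) of the 9 transporters that passed the filter, for CGRP minus control in each subset (left) and CD11c minus IAIE at each treatment (right). On the left Slc6a6 stands at 0.05 in IAIE and -1.07 in CD11c cells, while Slc7a11 is positive and Slc1a5 negative in both.

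Whether the CGRP effect differed between the subsets was tested by the interaction, the CD11c effect minus the IAIE effect. None of the 8 passed (0 called by edgeR, by DESeq2 and by limma-voom, with 0.151% of all genes called by edgeR). At an unadjusted p under 0.05 there were 2, Slc7a7 (interaction 1.57 ± 0.61 on the log2 scale, adjusted p = 0.443) and Slc38a1 (-0.58 ± 0.27, adjusted p = 0.553). Nothing is read from these 2, as the share of all genes at that unadjusted p is not given here. For Slc3a2 and Slc7a8, called in IAIE and not in CD11c cells, the interaction was -0.32 ± 0.18 and -0.53 ± 0.28 (adjusted p = 0.675 and 0.631). A difference between the subsets in the response of these genes was therefore not shown. Of the fibroblast markers, 1 of 6 tested passed the interaction as higher, and the part of these cells in the estimates was not tested.

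The subsets also differed in their transporters in tissue kept without CGRP. CD11c cells held more Slc7a11 than IAIE cells and less Slc7a7, Slc1a5 and Slc38a2, which was 1 higher and 3 lower of 8, where 21.2% of all genes were called and 34.2% did not overlap. The median log2 difference was -0.44, against -0.02 for all genes. In the same comparison 9 of 10 macrophage, 5 of 6 tested fibroblast, 3 of 4 B cell and 1 of 4 tested mural markers were lower in CD11c libraries. There 2 of 4 tested dendritic cell and 1 of 4 mast cell markers were higher. The part of all these cells was not tested. Slc7a11 was higher by 0.97 ± 0.18 (1.95-fold, adjusted p = 7.4e-04) and Slc7a7 differed by -1.78 ± 0.43 (adjusted p = 0.0056). Slc38a2 differed by -0.49 ± 0.12 (adjusted p = 0.0052). Slc1a5 differed by -0.70 ± 0.19 (adjusted p = 0.0128), a call that was lost without IAIE control replicate 1 (0.0787), CD11c control replicate 2 (0.0770) or 3 (0.0848) and with every gene of at least 1 count (0.0748). Slc7a8 gave -0.57 ± 0.20 (adjusted p = 0.0515) and passed without IAIE control replicate 1 (0.0044), with every gene of at least 1 count (0.0196), with the replicate block (0.0304), with the block of replicate within treatment (0.0055) and in DESeq2 (0.0341). Slc3a2 (-0.22 ± 0.13), Slc7a5 (0.32 ± 0.17) and Slc38a1 (-0.39 ± 0.19) did not pass, with adjusted p from 0.164 to 0.263, though Slc38a1 did with the block of replicate within treatment (0.0260).

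Among CGRP libraries, CD11c cells again held more Slc7a11 (0.58 ± 0.18, adjusted p = 0.0307), and they held less Slc3a2, Slc7a8 and Slc38a1. That was again 1 higher and 3 lower of 8, with 16.9% of all genes called and 34.8% not overlapping, and with a median of -0.33 against 0.0022 for all genes. Here 8 of 10 macrophage and 4 of 4 B cell markers were lower in CD11c libraries. Tested markers higher there were 2 of 4 dendritic cell, 1 of 6 fibroblast and 1 of 1 chondrocyte markers. So were 1 of 4 each of the mural, endothelial and mast cell markers. The part of all these cells was not tested. Slc7a8 differed most by p, with 303, 288 and 354 CPM in IAIE and 151, 150.5 and 138 CPM in CD11c libraries (log2 difference -1.11 ± 0.20, adjusted p = 5.3e-04). Slc38a1 differed by -0.97 ± 0.19 (adjusted p = 0.0011) and Slc3a2 by -0.54 ± 0.13 (adjusted p = 0.0057), the latter not past the threshold without IAIE CGRP replicate 2 (0.0573). Without IAIE CGRP replicate 1 (0.170) or 2 (0.0715), or CD11c CGRP replicate 2 (0.126) or 3 (0.0776), the Slc7a11 call was lost. Same-numbered CGRP libraries of the subsets deviated together, and a paired fit changed one call: Slc38a2, at -0.29 ± 0.12 (adjusted p = 0.110), passed with the CGRP libraries alone and a replicate block (0.0469, chosen after seeing the data), with the block of replicate within treatment (0.0476) and in limma-voom (0.0459). Slc1a5 (-0.37 ± 0.20), Slc7a5 (0.29 ± 0.17) and Slc7a7 (-0.21 ± 0.43) did not pass, with adjusted p from 0.243 to 0.814.

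The make-up of the light chains that share SLC3A2 followed from these levels. Of the summed level per kilobase of Slc7a5, Slc7a6, Slc7a7, Slc7a8 and Slc7a11, Slc7a11 made up 29.0 ± 2.18% without and 39.0 ± 5.33% with CGRP in IAIE cells, and 49.0 ± 4.92% without and 59.7 ± 5.00% with CGRP in CD11c cells (SD, n = 3). The range in IAIE control was 26.5 to 30.4% and in IAIE CGRP 32.9 to 42.4%. In CD11c control it was 45.0 to 54.5% and in CD11c CGRP 54.3 to 64.1%, so the CD11c groups overlapped by library and the IAIE groups did not. Slc7a8 had the largest share by group mean in IAIE cells, 40.2 ± 8.79% in control and 45.5 ± 2.64% with CGRP, and a smaller one in CD11c cells, 23.5 ± 3.27% and 21.6 ± 2.19%. Slc7a5 made up 22.9 ± 7.99%, 13.5 ± 2.21%, 24.4 ± 4.94% and 16.7 ± 2.90% in the same order of groups as Slc7a11. The 5 light chains together came to 0.299 ± 0.0482 of the Slc3a2 level per kilobase in IAIE control libraries and 0.328 ± 0.0979 with CGRP, and to 0.404 ± 0.0698 and 0.451 ± 0.0102 in the CD11c groups. These shares describe RNA, not protein, and carry no test.

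**Figure D4:**
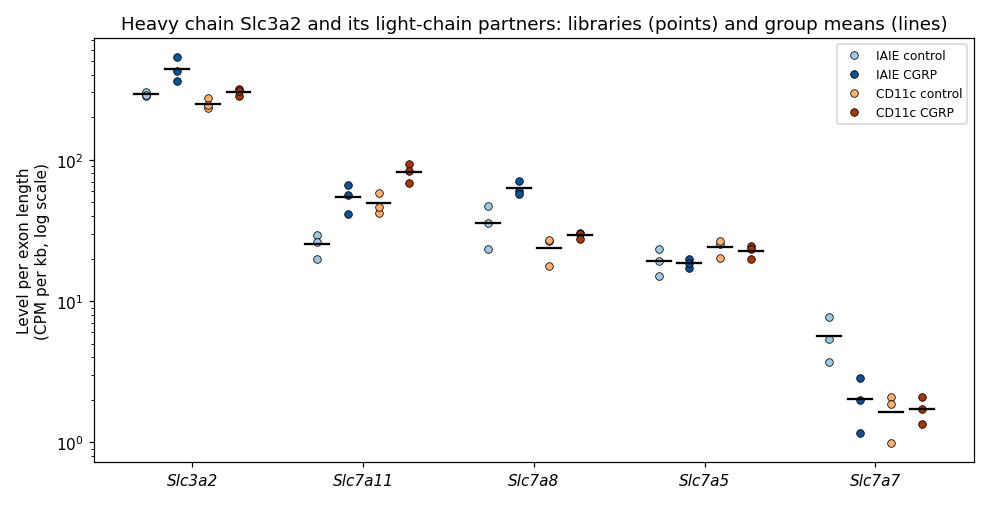
Level per exon length (CPM per kb, log axis) of the heavy chain Slc3a2 and 4 of its light-chain partners, with a point per library and a line at each group mean. Slc3a2 lies above every light chain in all groups, from 249.7 to 439 CPM per kb by group mean, and Slc7a11 climbs from 25.2 in IAIE control to 81.7 in CD11c CGRP libraries.

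A list of 46 further amino acid transporters had 41 with a row and 19 tested. With CGRP, 1 rose in IAIE cells (9.21% of all genes called), or 2 with a replicate block, in DESeq2 or with every gene of at least 1 count. In CD11c cells 2 rose and 2 fell (10.9% of all genes called). Slc7a2, a cationic amino acid carrier that brings in arginine, rose in both. It read 4.34, 7.45 and 8.06 CPM in IAIE control and 23.8, 27.7 and 32.4 CPM in IAIE CGRP libraries (log2 change 2.10 ± 0.40, adjusted p = 0.0017). In CD11c cells it went from 12.2, 3.27 and 6.87 CPM to 63.9, 98.5 and 39.9 CPM (3.25 ± 0.39, adjusted p = 1.3e-05), and both calls held under all 14 alternatives. Slc43a2, a neutral amino acid carrier, rose in CD11c cells by 0.66 ± 0.15 (adjusted p = 0.0064), but not without CD11c CGRP replicate 2 (0.0582). Slc16a10, which carries aromatic amino acids (-0.81 ± 0.24, adjusted p = 0.0344), and Slc7a1, another arginine carrier (-0.47 ± 0.15, adjusted p = 0.0470), fell there. In IAIE cells Slc43a2 gave 0.44 ± 0.15 (adjusted p = 0.0718), Slc16a10 -0.51 ± 0.22 (0.188) and Slc7a1 -0.18 ± 0.15 (0.539). None of them passed the interaction (adjusted p from 0.782 to 0.884), so a difference between the subsets was not shown. The Slc16a10 call was lost without CD11c control replicate 1 (0.0514), 2 (0.0704) or 3 (0.0962) or CGRP replicate 1 (0.108) or 2 (0.105). The Slc7a1 call was lost without CD11c control replicate 2 (0.126) or 3 (0.109) or CGRP replicate 1 (0.142) or 2 (0.186), with every gene of at least 1 count (0.0638) and with 1 surrogate variable (0.0590).

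Of these 19, CD11c cells had 1 higher and 7 lower than IAIE cells among control libraries, where 21.2% of all genes were called, and 1 higher and 5 lower among CGRP libraries, where 16.9% were. The medians were -0.81 and -0.50 on the log2 scale, against -0.02 and 0.0022 for all genes. Slc43a2 (-0.999 ± 0.15, adjusted p = 8.8e-05 in control), Slc38a7, a lysosomal glutamine carrier (-1.06 ± 0.19, adjusted p = 5.7e-04), Slc16a10 (-1.21 ± 0.23, adjusted p = 8.2e-04) and Ctns, the lysosomal cystine exporter (-1.06 ± 0.23, adjusted p = 0.0024), were lower in CD11c control libraries under all 15 alternatives. The first 3 were also lower among CGRP libraries. So was Slc36a1, lower by -1.58 ± 0.36 in control (adjusted p = 0.0037) and -1.62 ± 0.34 in CGRP libraries (adjusted p = 0.0021). Its calls held under all 15 and all 16 alternatives, respectively. Slc38a6, of the glutamine carrier family, was near the threshold in both comparisons. Its control call (-1.64 ± 0.52, adjusted p = 0.0284) was lost without IAIE control replicate 1 (0.0813) or 2 (0.100), without any 1 of the CD11c control libraries (0.0558 to 0.0952) and with the block of replicate within treatment (0.0587). Its CGRP call (-1.54 ± 0.52, adjusted p = 0.0496) was lost in every paired fit (0.0581 with a replicate block, 0.0620 with the CGRP libraries alone and 0.0706 with the block within treatment) and without any 1 of the 6 libraries (0.0527 to 0.1985). Mfsd12, a lysosomal cysteine carrier, was lower in control libraries (-0.81 ± 0.28, adjusted p = 0.0455), but not with the replicate block (0.0625), nor without IAIE control replicate 1 (0.244) or 3 (0.0779) or CD11c control replicate 1 (0.167) or 2 (0.157). The gene higher in CD11c cells was Slc1a4 in control (2.43 ± 0.67, adjusted p = 0.0127, but 0.0537 without IAIE control replicate 1 and 0.0587 in limma-voom) and Slc7a2 among CGRP libraries (1.26 ± 0.34, adjusted p = 0.0124, but 0.0620 without IAIE CGRP replicate 1 and 0.115 without CD11c CGRP replicate 2).

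Genes of taurine synthesis and of the volume-regulated anion channel, through which taurine leaves swollen cells, numbered 10 with 6 tested. In CD11c cells, the subset in which Slc6a6 was lower, 0 of 6 passed with CGRP by edgeR, DESeq2 or limma-voom, and 0 had an unadjusted edgeR p under 0.05, where edgeR called 10.9% of all genes. Lrrc8c, a channel subunit, rose in IAIE cells from 39.0 ± 10.3 to 67.0 ± 4.80 CPM (log2 change 0.78 ± 0.20, adjusted p = 0.0141, and 0.0697 without IAIE control replicate 2). In CD11c cells it averaged 79.4 ± 8.08 CPM in control and 98.0 ± 18.5 CPM in CGRP libraries. The synthetic enzymes Cdo1 and Csad were low, with group means of 0.377 to 1.45 and 2.02 to 5.33 CPM. Ado, also of the synthesis genes, was higher, with group means of 13.1 to 22.1 CPM.

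Glutathione is made from the cysteine that cystine uptake supplies, and 12 of 13 genes of its metabolism were tested. In IAIE cells 3 rose (9.21% of all genes called), with a median log2 change of 0.34 over the list against -0.02 for all genes. In CD11c cells 3 rose and 1 fell (10.9% of all genes called), with a median of -0.04 against 0.0016, and without CD11c CGRP replicate 2 only 1 rose. Gclm, the modifier subunit of the enzyme that begins its synthesis, rose by 0.94 ± 0.17 in IAIE (adjusted p = 9.2e-04) and 0.72 ± 0.16 in CD11c cells (adjusted p = 0.0063, and 0.0550 without CD11c CGRP replicate 2). Gss, glutathione synthetase, rose by 1.19 ± 0.29 (adjusted p = 0.0129) and 1.78 ± 0.28 (adjusted p = 2.3e-04), the IAIE call lost without IAIE control replicate 2 (0.0704) and in limma-voom (0.0528). Gsr, glutathione reductase, rose by 1.07 ± 0.18 (adjusted p = 6.4e-04) and 0.72 ± 0.18 (adjusted p = 0.0100), the latter lost without CD11c control replicate 3 (0.0664) or CGRP replicate 2 (0.0831). Gpx1, a peroxidase that consumes glutathione, fell in CD11c cells from 263 ± 44.8 to 141 ± 20.1 CPM (-0.89 ± 0.17, adjusted p = 0.0013). In IAIE cells Gpx1 averaged 195 ± 45.8 CPM in control and 140 ± 9.69 CPM in CGRP libraries (-0.48 ± 0.17, adjusted p = 0.0934). Its interaction did not pass (adjusted p = 0.680), so a fall particular to CD11c cells was not shown.

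ATF4 is the transcription factor of the amino acid response, and Slc7a11 and Slc3a2 are among its known targets. Of a list of 26 further genes, ATF4 itself and targets, 23 were tested. Atf4 did not pass, at -0.04 ± 0.12 in IAIE (adjusted p = 0.904) and -0.20 ± 0.12 in CD11c cells (adjusted p = 0.351). Its relative Atf3 gave -0.54 ± 0.17 in IAIE cells (adjusted p = 0.0568), and 0 of the list passed as lower in either subset in the main fit. Under the alternatives at most 1 passed as lower in IAIE cells and 0 in CD11c cells. In IAIE cells 5 rose (9.21% of all genes called), with a median log2 change of 0.28 over the list against -0.02 for all genes, and 3 did without IAIE control replicate 2 or IAIE CGRP replicate 1. In CD11c cells 3 rose, a share near the 10.9% of all genes called, with a median of 0.20 against 0.0016, and 0 did without CD11c control replicate 2 or CD11c CGRP replicate 1. Sars, a seryl-tRNA synthetase, rose by 1.09 ± 0.15 in IAIE (51.0 ± 2.91 to 109 ± 4.21 CPM, adjusted p = 1.2e-04) and by 0.64 ± 0.15 in CD11c cells (adjusted p = 0.0073, but 0.0758 without CD11c control replicate 2 and 0.0724 without CGRP replicate 1). Aars, an alanyl-tRNA synthetase, rose by 0.60 ± 0.11 in IAIE cells (adjusted p = 0.0013). Asns, asparagine synthetase, rose in both, from 14.8 ± 0.958 to 33.0 ± 9.02 CPM in IAIE (adjusted p = 0.0155) and from 18.6 ± 7.40 to 38.7 ± 7.55 CPM in CD11c cells (adjusted p = 0.0180). The IAIE call of Asns was lost without control replicate 1 (0.0501), control replicate 2 (0.0559) or CGRP replicate 2 (0.105) and in limma-voom (0.0547), and its CD11c call without control replicate 2 (0.109) or CGRP replicate 1 (0.103). Eif4ebp1, an inhibitor of translation, rose by 0.74 ± 0.18 in IAIE (adjusted p = 0.0116) and by 0.75 ± 0.18 in CD11c cells (adjusted p = 0.0079), lost without IAIE control replicate 1 (0.0599) or CGRP replicate 1 (0.0513) in the former and without CD11c control replicate 2 (0.0704) or CGRP replicate 1 (0.0559) in the latter. Trib3, a pseudokinase, rose in IAIE cells (1.04 ± 0.27, adjusted p = 0.0183), but not without IAIE control replicate 2 (0.0842) or CGRP replicate 1 (0.0656), in limma-voom (0.0748) or in a fit of the compared groups alone (0.0561).

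**Figure D5:**
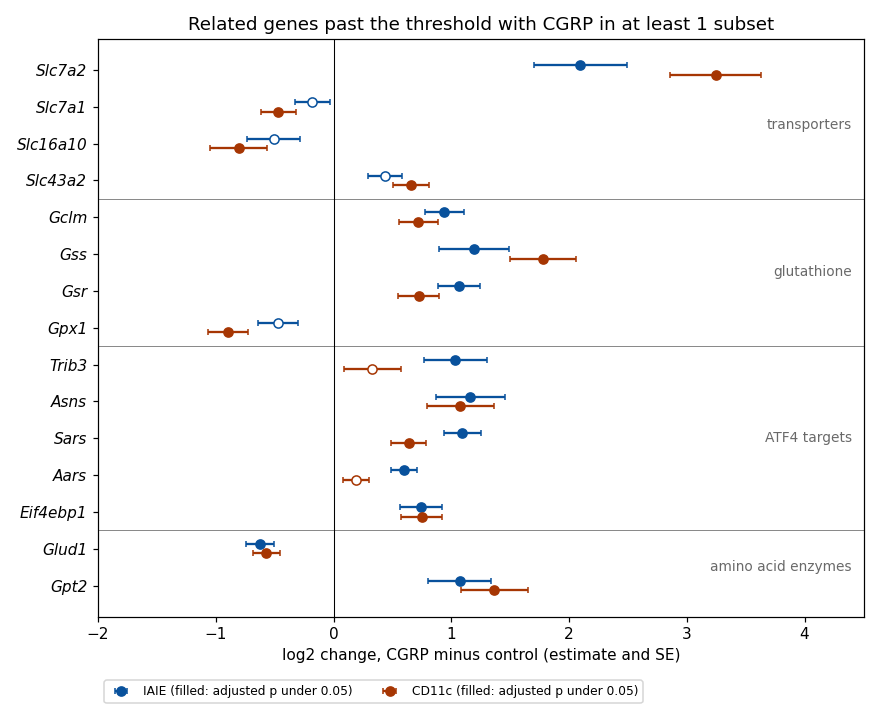
Log2 change with CGRP (horizontal axis, estimate with SE) in IAIE and CD11c cells for genes of 4 related lists that passed in at least 1 subset, where filled points passed the threshold and open points did not. Slc7a2 shows the largest rise, 2.10 and 3.25, and Glud1 lies below 0 in both subsets. Not every gene that passed is drawn.

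Enzymes that use glutamine, glutamate and branched-chain amino acids, 12 of 14 tested, included Glud1 and Gpt2 among those that passed in both subsets. Glud1, glutamate dehydrogenase, fell by 0.62 ± 0.12 on the log2 scale in IAIE (adjusted p = 0.0018) and by 0.57 ± 0.12 in CD11c cells (adjusted p = 0.0027), under all 14 alternatives in both. Gpt2, mitochondrial alanine aminotransferase, rose from 27.0, 18.3 and 18.4 CPM to 46.6, 35.5 and 52.0 CPM in IAIE cells (1.07 ± 0.27, adjusted p = 0.0148) and from 8.57, 13.3 and 7.94 CPM to 30.7, 28.7 and 18.3 CPM in CD11c cells (1.37 ± 0.28, adjusted p = 0.0030). Its IAIE call was lost without control replicate 2 (0.0616), control replicate 3 (0.0515) or CGRP replicate 3 (0.0776). Of 25 tested genes of lysosomal amino acid sensing, Sesn3 rose and Flcn fell with CGRP in IAIE cells (9.21% of all genes called) and Fnip2 fell in CD11c cells (10.9% of all genes called). The Sesn3 and Flcn calls were lost without any 1 of 4 and 3 libraries, respectively, each time with IAIE CGRP replicate 2 giving the highest adjusted p (0.255 and 0.152), and that of Fnip2 without CD11c CGRP replicate 3 (0.0550). In CD11c against IAIE control libraries 7 were lower, under all 15 alternatives, and 1 was higher, Sesn3, where 21.2% of all genes were called. This Sesn3 call was lost under 5 of the 15, with the highest adjusted p (0.0858) without CD11c control replicate 3. Among the 7, Fnip2 (-1.21 ± 0.11, adjusted p = 4.3e-07) and Lamtor3 (-1.33 ± 0.17, adjusted p = 1.3e-05), both of the complexes that recruit mTORC1 to lysosomes, differed most by p. Over the 95 tested genes of these 6 lists, 0 passed the interaction in edgeR, DESeq2 or limma-voom, where edgeR called 0.151% of all genes. An unadjusted edgeR p under 0.05 was found for 9. The share of all genes at that unadjusted p is not given here, so nothing is read from this count.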

How the data were processed

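Raw read counts per gene symbol were deposited for 12 libraries. Per the study's methods, the authors trimmed reads with Trim Galore, aligned them to mm10 with HISAT2 and counted them with featureCounts; versions, annotation and strand setting are not given in the sources used here. The combined table repeats the 12 libraries, and 6 further columns that no label maps to a sample were not used. The sources used here do not say whether PCR copies were removed by molecular identifiers. Reads may therefore not be independent molecules, and floors cover counting error only.

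Genes were filtered with filterByExpr by group (minimum count 10, minimum total 15), leaving 11927, scaled by TMM and fitted in edgeR 4.0.16 (R 4.3.3) by the quasi-likelihood test with a mean per group over all 12 libraries. CPM values are TMM-scaled. Gene models were GENCODE M21 on GRCm38, the assembly of mm10.

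The transporters and lists were chosen with earlier results of these data known. Named genes were all 10 transporters, genes past the threshold in a related list (smallest adjusted p first), the 5 most correlated with Slc6a6 and the sort markers. Lists were described by counts and medians only. Alternatives were 2 other scalings (RLE, upper quartile), no filter beyond 1 count, replicate blocks, DESeq2 1.42.0, limma-voom (limma 3.58.1), 1 surrogate variable (sva 3.50.0), the compared groups alone and leaving out each library.

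Labels do not say what replicate numbers share. Deviations from group means over 7618 genes were correlated between same-numbered libraries of each 2 groups. Between IAIE CGRP and CD11c CGRP this gave 0.233, 0.126 and 0.136 for replicates 1, 2 and 3, each over 0.1. No other comparison was over 0.1 for every number. Paired fits were run as alternatives only. The main fit did not pair libraries, and its p-values between the subsets take no account of such sharing. No batch or date is labelled. Results for 1 further gene of the related lists are not reported here.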

Additional observations from a re-analysis of the deposited data

How the results depend on the processing

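Over the 8 tested transporters, 5 comparisons and their alternatives, 583 estimates kept direction and side of the threshold, 28 lost it, 9 gained it and 12 changed sign; the cause was not tested. The sign changes were of estimates near 0 that had not passed: with CGRP in IAIE cells, Slc7a5 gave 0.025 with every gene of at least 1 count. With 1 library left out, the lowest and highest estimates were -0.18 to 0.13 for Slc7a5 and -0.26 to 0.089 for Slc38a1 with CGRP in IAIE cells, -0.22 to 0.27 for Slc7a7 with CGRP in CD11c cells, -0.22 to 0.082 for the interaction of Slc7a5 and -0.48 to 0.12 for Slc7a7 between subsets among CGRP libraries.

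The number of genes called for the interaction, 18, became 171 with every gene of at least 1 count, 36 with a replicate block, 52 with a replicate block within treatment, 97 in DESeq2, 2 in limma-voom and 38 with 1 surrogate variable. With 1 library left out it ranged from 6 to 29. The other gene counts then ranged from 722 to 956 (CGRP in IAIE, 1099 with all libraries, the lowest without IAIE CGRP replicate 2), 929 to 1046 (CGRP in CD11c, 1298), 2032 to 2186 (subsets in control, 2526) and 1456 to 1815 (subsets with CGRP, 2012). Transporters called ranged from 3 to 5 (CGRP in IAIE, 6; the 3 without IAIE CGRP replicate 3), 1 to 3 (CGRP in CD11c, 3; the 1 without CD11c control replicate 1 or 3), 0 to 0 (interaction), 3 to 5 (subsets in control, 4) and 2 to 4 (subsets with CGRP, 4; the 2 without IAIE CGRP replicate 2). The paired fits changed no call of the 8 tested transporters other than those given beside the results. Counts under 100 a library limit Slc7a7, and Slc1a3 was too low to pass the filter.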
